A study of Mus musculus with 8 samples.

Results

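Matrix metalloproteinases (MMPs) and their tissue inhibitors (TIMPs) were described at the RNA level in the mouse heart 24 hours after myocardial infarction (MI). The 10 genes were 6 MMP genes (Mmp2, Mmp3, Mmp9, Mmp14, Mmp15 and Mmp19) and 4 TIMP genes (Timp1, Timp2, Timp3 and Timp4). They were chosen by name, and each was read from a probe that is named by one of its RefSeq transcripts and was detected on 4 or more of the 8 arrays. Detected means well above background by the scanner software. They make up 10 of the 15156 genes with such a probe. Timp2 had 2 such probes, of which the brighter was used, and each of the other genes had 1. RNA came from the ventricles of male C57BL\6 mice. In 4 mice the anterior interventricular artery was permanently tied off (MI), and 4 mice were sham-operated. The age of the mice is not given in the labels. The methods name no dissection of the infarct before the heart was homogenized, so dead, border and remote myocardium can lie in the same RNA sample, and fewer cells of a type cannot be told apart from less RNA per cell. RNA labeled in 1 colour was hybridized to a SurePrint G3 mouse array, 1 array per mouse.

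MMPs are zinc-dependent proteases that cut collagens, gelatin, laminins and proteoglycans of the extracellular matrix. Most are secreted as inactive proenzymes, while the membrane types stay anchored at the cell surface, and TIMPs block them by binding at the active site. In the infarcted heart these enzymes are known for clearing matrix of the necrotic muscle, and loss of the balance with TIMPs is linked to wall thinning, dilation and rupture.

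The letters upstream of the genes were read from RefSeq promoter windows of build GRCm38.p6, which run from 250 bases before to 50 bases after each gene's start and were matched by symbol. A window was found for 7 of the 10 genes, and Mmp2, Mmp9 and Mmp19 had none. The 250 upstream bases are shown for Timp1 and Mmp14, whose RNA rose after MI, and for Mmp3, whose window alone among the 7 held the AP-1 letters. The windows are chrX:20869916-20870165 on the plus strand for Timp1, chr14:54431348-54431597 on the plus strand for Mmp14 and chr9:7445572-7445821 on the plus strand for Mmp3. Capitals mark every match to AP-1 (TGANTCA), Ets (AGGAAG), STAT (TTCNNNGAA) or a TATA box (TATAAA), each searched on both strands, and no match overlapped another.
Timp1: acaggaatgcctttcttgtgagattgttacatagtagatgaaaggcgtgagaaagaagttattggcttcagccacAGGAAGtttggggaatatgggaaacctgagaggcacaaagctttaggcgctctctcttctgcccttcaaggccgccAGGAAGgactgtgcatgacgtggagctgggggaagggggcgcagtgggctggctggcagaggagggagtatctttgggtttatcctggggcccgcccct
Mmp14: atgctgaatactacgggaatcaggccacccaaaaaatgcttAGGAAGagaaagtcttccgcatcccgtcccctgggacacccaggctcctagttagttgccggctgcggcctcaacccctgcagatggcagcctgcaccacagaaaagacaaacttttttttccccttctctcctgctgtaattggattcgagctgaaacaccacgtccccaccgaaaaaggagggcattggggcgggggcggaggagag
Mmp3: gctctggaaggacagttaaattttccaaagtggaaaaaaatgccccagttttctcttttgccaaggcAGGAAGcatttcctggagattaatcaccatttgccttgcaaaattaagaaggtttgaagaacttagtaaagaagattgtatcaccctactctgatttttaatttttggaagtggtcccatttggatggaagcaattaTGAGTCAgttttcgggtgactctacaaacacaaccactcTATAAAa
In Mmp3 the first base of the AP-1 match lay at position -46, counted back from the start, with an Ets match at -183 and a TATA box match at -7. Mmp14 held 1 Ets match, at -209. Timp1 held Ets matches at -175 and -99, and another after the start. Timp3 held an Ets match at -204 and Timp4 held one at -111 on the minus strand, while Mmp15 and Timp2 held no match to any of the 4 letter strings. Across all 32851 RefSeq windows of the same length, AP-1 letters stood in 7.81%, Ets letters in 35.4%, STAT letters in 8.30% and the TATA box in 13.6%. The Ets letters are thus common, and a match is a description of the window only. The upstream bases of Mmp3 had a G and C content of 37.6%, against 52.4% for the median window and 68.0% for Timp2.

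The 8 arrays lay on 1 slide, were scanned once, and formed 2 rows, each shared equally by both groups. The share of detected spots per array ran from 58.6% to 66.4%. Every probe of the 10 genes was well above background on all 8 arrays, and none was saturated. Normalized log2 signal is the unit of all levels below. The 3 arrays whose median deviation for these genes was largest are described first. In sham replicate 1, 9 of the 10 genes lay above the mean of the other 3 sham-operated mice, with a median deviation of 0.67, where the median over all probes was 0.22. In MI replicate 2, all 10 genes lay below the mean of the other 3 MI mice, with a median deviation of -0.80, where the median over all probes was -0.44. In MI replicate 3, all 10 genes lay above the mean of the other 3 MI mice, with a median deviation of 0.59, where the median over all probes was 0.21. After scaling each array to its 75th percentile instead, 9 of 10 genes were still above in sham replicate 1, 4 of 10 were above in MI replicate 2 and 6 of 10 in MI replicate 3. Other arrays leaned to one side too. Before that scaling, 1 of 10 genes lay above in each of sham replicates 2 and 4, and 8 of 10 in MI replicate 1. With that scaling these became 4, 1 and 7 of 10, in that order. The log2 fold changes without sham replicate 1, MI replicate 2 and MI replicate 3 are given beside the called genes, and beside Mmp2, Mmp15 and Timp2. Myh6, Tnnt2 and Tnni3, which encode sarcomere proteins of cardiomyocytes, were well above background in every mouse, so the labeled tissue and its defining markers match. They differed between the groups by between -0.07 and -0.02 on the log2 scale. Actn2, another sarcomere gene, differed by 0.51 (limma adjusted p = 0.204).

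After MI, RNA of the gelatinase gene Mmp9, the membrane-type protease gene Mmp14 and the inhibitor gene Timp1 rose more than 2-fold. RNA of Mmp2, Mmp3, Mmp15, Mmp19, Timp2, Timp3 and Timp4 did not pass the test. A call needed a difference of more than 2-fold and a limma p under 0.05 after adjustment over 34038 probes. By this rule 3 of the 10 genes were called, all higher, where 3.07% of all probes were called higher and 3.48% in either direction. None was called lower in limma, where 0.405% of all probes were, and none was lower at an unadjusted p under 0.05. At an adjusted p under 0.05 and any fold, the same 3 genes passed, where 6.3% of all probes passed as higher and 7.61% in either direction. The values of all MI mice lay above those of all sham-operated mice for Mmp9 and Timp1, which is 2 of 10 genes, beside 8.46% of all probes. Counting either direction, the groups did not overlap for 11.2% of all probes. The median log2 fold change of the 10 genes was 0.20, and that of all probes was 0.12. The former rested on single mice, since it was 0.049 without MI replicate 1, 0.46 without MI replicate 2 and 0.39 without sham replicate 1, and it was 0.077 with 75th percentile scaling. For the 7 genes that did not pass, the 95% confidence intervals of the log2 fold change in limma lay between -0.85 and 0.92. A 2-fold difference in either direction was outside each of these intervals on this scale. Limma draws the variance behind them, and behind every SE and interval of a fold change below, partly from all probes. Intervals from the mice of a single gene can be wider, as for Timp2 with SDs of 0.64 (MI) and 0.52 (sham), and were not computed.

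**Figure D1:**
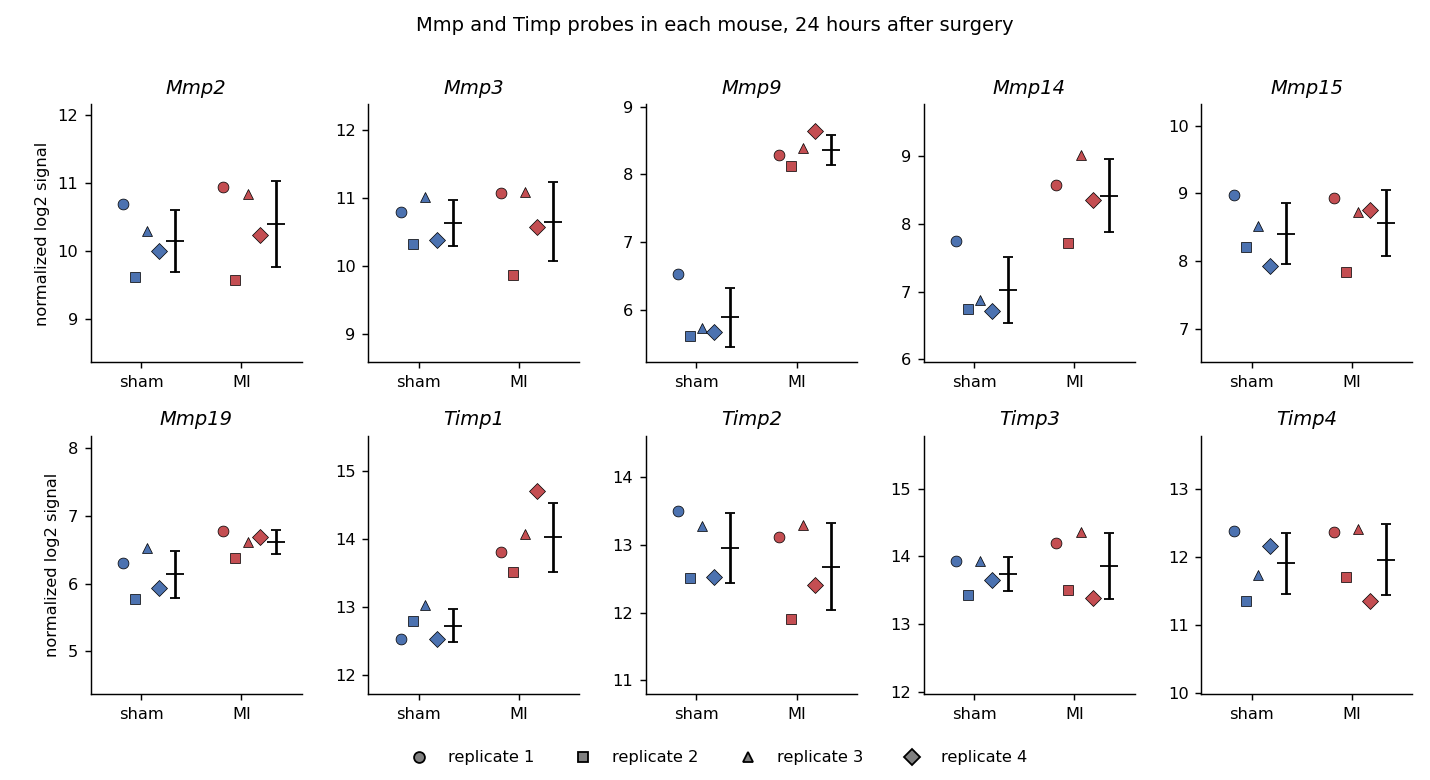
Normalized log2 signal (vertical axes, each covering the same span of log2 units) of the 6 MMP and 4 TIMP genes in each sham-operated mouse (blue) and each MI mouse (red), with symbols for the replicate number and bars for mean ± SD (n = 4 per group). The 4 MI mice lie above all 4 sham-operated mice for Mmp9 and Timp1, and for Mmp14 the highest sham-operated mouse (7.74) reaches the lowest MI mouse (7.72).

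Mmp9 encodes the gelatinase that neutrophils store in granules and that degrades denatured collagen and type IV collagen. Its level was 8.28, 8.13, 8.40 and 8.65 in MI replicates 1 to 4 and 6.53, 5.62, 5.74 and 5.68 in sham replicates 1 to 4. The MI mice lay close together, and the group's lowest value was well above the highest of the sham-operated mice. Mmp9 was 5.54-fold higher after MI (95% confidence interval 4.01 to 7.65), a log2 fold change of 2.47 ± 0.23 (SE, n = 4 per group) with a limma adjusted p of 2.01e-08. The exact two-sided permutation test gave p = 0.0286, the smallest value that 4 against 4 mice allow. Within the rows of the slide the difference was 2.13 in row 1 and 2.81 in row 2. Sham replicate 1 stood above the other sham-operated mice, and the log2 fold change was 2.68 without it, 2.55 without MI replicate 2 and 2.46 without MI replicate 3. The size of the Mmp9 change depended on the processing, since it was 1.66 after normexp background correction with quantile normalization and 1.03 with the spike-in model refitted, both still past the test.

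Mmp14 encodes a membrane-anchored collagenase that also activates the proenzyme of Mmp2 at the cell surface, with Timp2 as the bridging partner. Its level was 8.57, 7.72, 9.004 and 8.34 in MI replicates 1 to 4 and 7.74, 6.74, 6.88 and 6.71 in sham replicates 1 to 4. Sham replicates 2 to 4 lay close together, and sham replicate 1 stood at the level of MI replicate 2, so the groups overlapped by this pair. On the scanner scale, before any normalization between arrays, the same 2 mice had signals of 239.7 (sham replicate 1) and 246.5 (MI replicate 2). Mmp14 was 2.62-fold higher after MI, a log2 fold change of 1.39 ± 0.26 (SE, n = 4 per group) with a limma adjusted p of 0.000753. The exact permutation test, two-sided, gave p = 0.0571. In row 1, which holds both of these mice, the difference was 0.90, and in row 2 it was 1.88. It was 1.63 without sham replicate 1, 1.62 without MI replicate 2 and 1.19 without MI replicate 3. With the spike-in model refitted, the Mmp14 change was 0.72 and no longer passed the test (limma adjusted p = 0.0728), and with an unmoderated test its adjusted p was 0.144. After normexp background correction with quantile normalization it was 0.95, under 2-fold and thus not called, with a limma adjusted p of 0.00281.

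Timp1 encodes a secreted inhibitor with a broad range of MMP targets, and its transcription is known to respond to cytokines. Its level was 13.82, 13.52, 14.08 and 14.71 in MI replicates 1 to 4 and 12.54, 12.80, 13.04 and 12.53 in sham replicates 1 to 4. Every MI mouse was above every sham-operated mouse, and MI replicate 4 was the highest. Timp1 was 2.47-fold higher after MI (95% confidence interval 1.76 to 3.47), a log2 fold change of 1.31 ± 0.24 (SE, n = 4 per group) with a limma adjusted p of 0.000490. The exact permutation test gave p = 0.0286, two-sided. The difference was 1.00 in row 1 and 1.61 in row 2, 1.24 without sham replicate 1, 1.48 without MI replicate 2, 1.29 without MI replicate 3 and 1.08 without MI replicate 4. With an unmoderated test the adjusted p was 0.0912. Unlike Mmp9, the Timp1 change hardly depended on the normalization between arrays, and it lay between 1.18 and 1.32 under all that were tried.

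**Figure D2:**
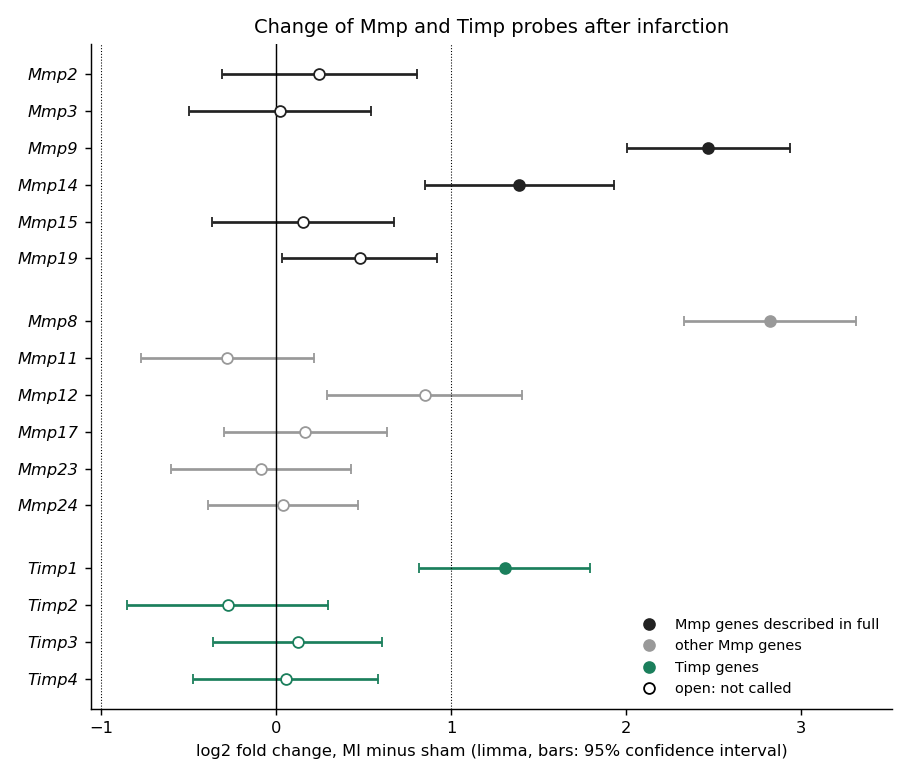
Log2 fold change (MI minus sham, horizontal axis) of the MMP genes described in full (black), other MMP genes detected in at least 1 sham-operated mouse (grey) and TIMP genes (green). Bars are the 95% confidence interval from limma, filled symbols are genes called and dotted lines are at 2-fold. Mmp9 (2.47), Mmp14 (1.39), Timp1 (1.31) and Mmp8 (2.82) are filled. The intervals of the 7 black and green genes that did not pass stay inside the dotted lines, while that of Mmp12 (grey, 0.29 to 1.40) crosses one.

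The other gelatinase gene, Mmp2, which is made by fibroblasts and cuts gelatin and type IV collagen, had levels of 10.94, 9.58, 10.84 and 10.23 in MI replicates 1 to 4. In sham replicates 1 to 4 its levels were 10.69, 9.61, 10.30 and 9.996. The groups overlapped almost completely, with a log2 fold change of 0.25 (95% confidence interval -0.31 to 0.80, limma adjusted p = 0.677). It was 0.43 without sham replicate 1, 0.52 without MI replicate 2 and 0.10 without MI replicate 3, and passed in none of these fits. Mmp3, a stromelysin that can activate other proenzymes, was at 10.66 ± 0.58 after MI and 10.63 ± 0.33 after sham operation (mean ± SD, n = 4 per group). That log2 fold change of 0.02 was the one nearest to 0 among the 10 genes, with an interval from -0.50 to 0.54, and it turned to -0.10 with 75th percentile scaling. Mmp15, another membrane-type protease, differed by 0.16 (limma adjusted p = 0.792), by 0.35 without sham replicate 1, by 0.40 without MI replicate 2 and by 0.10 without MI replicate 3. Mmp19, a secreted protease of several matrix proteins, had levels from 6.37 to 6.78 after MI and from 5.77 to 6.53 after sham operation. Sham replicate 3 lay inside the range of the MI mice. Its log2 fold change was 0.48 with an unadjusted limma p of 0.0351 and an adjusted p of 0.205, so it did not pass.

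Among the inhibitors, Timp2, which binds Mmp14 and the proenzyme of Mmp2, was the gene of the 10 with a lower mean after MI on this scale. Its brighter probe was at 13.11, 11.90, 13.29 and 12.40 in MI replicates 1 to 4 and 13.50, 12.50, 13.28 and 12.52 in sham replicates 1 to 4, and the groups overlapped. The log2 fold change was -0.28 (limma adjusted p = 0.645), whereas its second probe gave 0.20 (adjusted p = 0.677), so the 2 probes disagreed in sign and neither passed. The brighter probe gave -0.093 without sham replicate 1, -0.018 without MI replicate 2 and -0.48 without MI replicate 3, again without passing. Timp3, an inhibitor that binds to the matrix and also blocks ADAM proteases, ranged from 13.39 to 14.36 after MI and from 13.43 to 13.94 after sham operation. Its log2 fold change was 0.12 (limma adjusted p = 0.827). Timp4, the inhibitor known for its expression in the heart, ranged from 11.36 to 12.42 after MI and from 11.36 to 12.38 after sham operation, and its log2 fold change was 0.06 (limma adjusted p = 0.935). The means of Mmp3, Timp3 and Timp4 turned lower in MI with 75th percentile scaling, which moved the median of all probes from 0.12 to -0.02.

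Ratios of 2 probes on the same array were compared as well, since they do not depend on how bright an array was as a whole. Timp1 over Timp2 was higher in every MI mouse than in any sham-operated mouse, by 1.58 on the log2 scale (1.49 in row 1 and 1.67 in row 2), and so was Timp1 over Timp3, by 1.18 (0.83 and 1.53). For Timp1 over Timp4, 3 of 4 MI mice lay above all sham-operated mice and the mean difference was 1.25. The log2 ratio of Mmp9 over Mmp2, the pair of gelatinases, was higher by 2.22 (2.02 and 2.42) with no overlap. The mean difference was -0.91 for Mmp19 over Mmp14 and -0.22 for Mmp3 over Mmp2. The exact two-sided permutation p was 0.0286 for the 3 ratios without overlap, 0.0571 for Timp1 over Timp4 and Mmp19 over Mmp14, and 0.229 for Mmp3 over Mmp2. Adjusted over the 6 pairs these became 0.0571, 0.0686 and 0.229, so none passed, in a design where no single p can go below 0.0286 by exact permutation. A ratio can bear on unequal change of 2 RNAs and does not show which of the 2 stayed level.

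**Figure D3:**
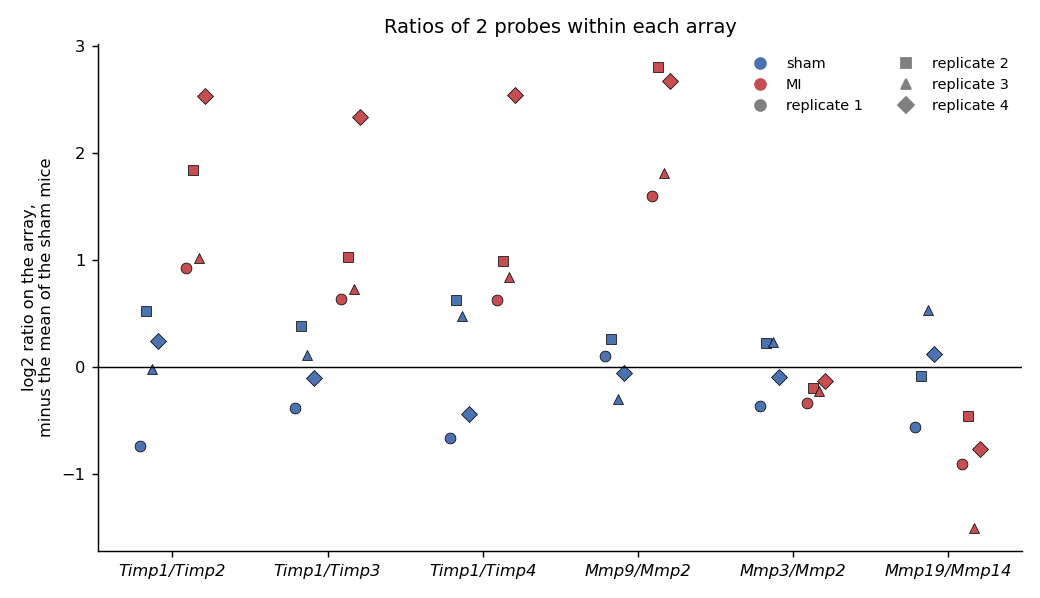
Log2 ratio of 2 probes on the same array (vertical axis, minus the mean of the sham-operated mice) for 6 pairs of genes, with 1 symbol per mouse (sham-operated blue, MI red). The ratios Timp1/Timp2, Timp1/Timp3 and Mmp9/Mmp2 have no overlap between the groups, and Timp1/Timp4 has 3 of 4 MI mice above all sham-operated mice.

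**Figure D4:**
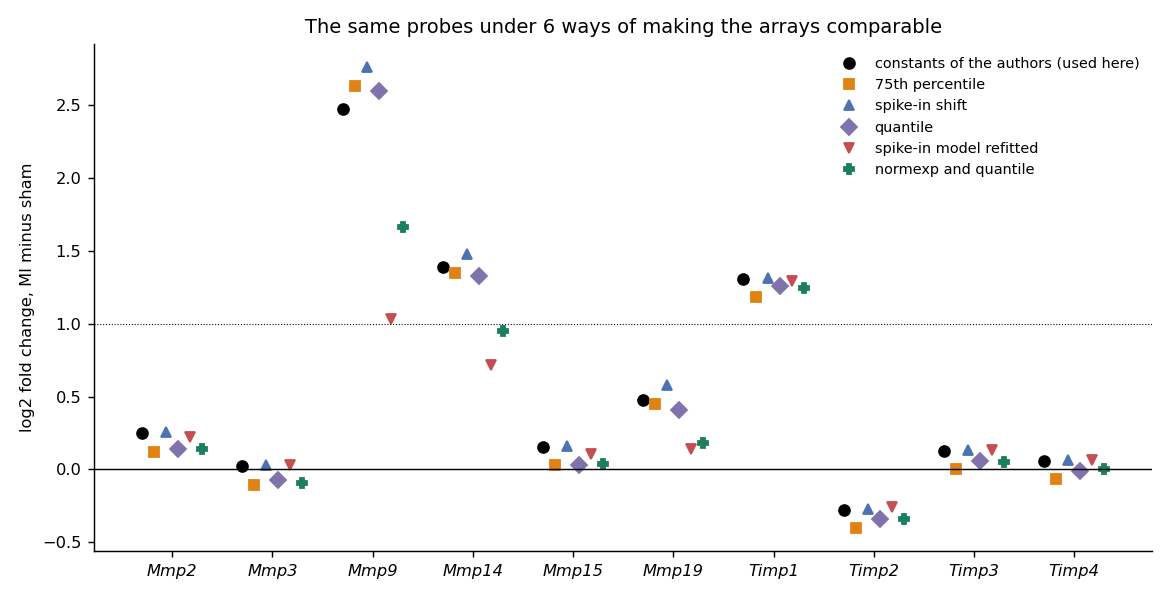
Log2 fold change (MI minus sham, vertical axis) of the 10 genes under 6 ways of making the arrays comparable, with the dotted line at 2-fold. Timp1 stays between 1.18 and 1.32 and the 7 genes that did not pass stay below the line, while Mmp9 ranges from 1.03 to 2.76 and Mmp14 from 0.72 to 1.48.

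The plot of the 10 genes under 6 normalizations shows where the calls depend on the normalization. Mmp9 and Mmp14 had low signals in sham-operated mice, with scanner means of 49.9 and 124 before normalization, where a constant added to every signal lowers a fold change most. Timp1, at a scanner mean of 6415 in sham-operated mice, moved little. The authors' normalization adds constants between 3.16 and 19.6, and the refitted spike-in model adds constants between 166 and 257. Both are given in units of the processed signal before scaling. Their part in the smaller changes of Mmp9 and Mmp14 was not tested.

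Beside these 10 genes, 17 further MMP genes were looked up, of which 16 had a probe and 7 passed the filter on dim signals. Mmp8, the collagenase stored in neutrophil granules, rose by 2.82 ± 0.24 (SE), from 5.98 ± 0.25 in sham-operated mice to 8.80 ± 0.51 after MI (mean ± SD, n = 4 per group, limma adjusted p = 6.04e-09). Mmp25, a membrane-type protease of leukocytes, was well above background in all 4 MI mice and in none of the 4 sham-operated mice. It was at least 1.885-fold higher. This bound takes for each sham-operated mouse the larger of its own value and the dimmest detected signal among kept probes on its array. Since Mmp25 passed the filter on dim signals through the MI mice alone, only this bound is given. Mmp11, Mmp12, Mmp17, Mmp23 and Mmp24 did not pass, and their log2 fold changes lay between -0.28 and 0.85. Mmp12, the macrophage elastase, had the largest of these, with detection in 3 MI mice and 1 sham-operated mouse and a limma adjusted p of 0.0530. With 1 detected sham-operated mouse the size of this difference is uncertain, and a second Mmp12 probe was well above background on no array. The collagenase gene Mmp13 was well above background in 3 MI mice and no sham-operated mouse and was left out of the test by the filter.

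Genes that activate MMPs or hold them at the cell surface were the second list, with 14 of 16 genes measured. In limma 5 of the 14 were called higher and 0 lower, 7 passed at any fold, all of them higher, and the median log2 fold change was 0.68. Plaur, the receptor of urokinase, rose by 2.40 ± 0.26 (SE, n = 4 per group). Thbs1, a matrix glycoprotein that binds proMMPs, rose by 1.86, and the integrin subunit gene Itgb3 rose by 1.40. The activator gene Plat rose by 0.78, under 2-fold, with a limma adjusted p of 0.0263. Plau, another activator gene, passed as higher (limma adjusted p = 0.0450), but just 1 of the 4 sham-operated mice was well above background for it, so no fold is given. Plat no longer passed without MI replicate 1 or 3 or sham replicate 2 or 4, with adjusted p in limma up to 0.104. Plau no longer passed without any of MI replicates 1, 3 and 4 and sham replicates 1, 3 and 4, with adjusted p in limma up to 0.157. Reck, which encodes a membrane-anchored inhibitor of MMPs, had a log2 fold change of -0.22 (limma adjusted p = 0.649), and Furin, the convertase that activates membrane-type MMPs, one of 0.47 (adjusted p = 0.236).

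The related ADAM and ADAMTS proteases held some of the larger changes. Of 14 genes measured, 4 were called higher and 0 lower, 8 did not pass, and the median log2 fold change was 0.35. Adamts4, an aggrecanase, rose by 2.87 ± 0.28, Adamts8 by 2.67 ± 0.39, the leukocyte protease gene Adam8 by 2.57 ± 0.24 and Adamts1 by 1.26 ± 0.25 (SE from limma, n = 4 per group). The MI mice spread widely for Adamts8 (SD 1.29, against 0.55 in sham-operated mice). Its difference was 3.63 in row 1 and 1.70 in row 2. Adamts9 rose by 0.86 and Adamts5, another aggrecanase, fell by 0.81 (limma adjusted p = 0.0384), which made it the single gene of the protease and control lists that passed in the lower direction. It did not pass without sham replicate 1 (limma adjusted p = 0.145), MI replicate 2 (0.102), sham replicate 3 (0.0684) or MI replicate 4 (0.0740). Adamts9 did not pass without sham replicate 2 (limma adjusted p = 0.0642). The sheddase genes Adam10 and Adam17, both targets of Timp3, had log2 fold changes of -0.09 and -0.05 with limma adjusted p of 0.875 and 0.933.

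Substrates of MMPs were the next list. Of 14 genes of collagens, laminins and other matrix proteins, 2 were called higher and 0 lower, 1 more passed, and 11 did not pass. Their median log2 change was 0.07. The called genes were Col4a1 and Col4a2, the basement membrane collagens that Mmp2 and Mmp9 cut, which rose by 1.21 ± 0.24 and 1.06 ± 0.24 (SE, n = 4 per group). Col4a2 dropped under 2-fold without sham replicate 2 (0.87) or MI replicate 3 (0.92) and still passed. The proteoglycan gene Vcan rose by 0.81, and did not pass without sham replicate 2, sham replicate 4 or MI replicate 3, with limma adjusted p from 0.0621 to 0.0882. The fibrillar collagen genes Col1a1, Col1a2 and Col3a1 had log2 fold changes of -0.57, -0.44 and -0.75, with limma adjusted p of 0.251, 0.388 and 0.127.

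Cytokines and transcription factors known to induce MMP or TIMP genes were the last list of the pathway. Of 16 genes, 7 were called higher and 0 lower in limma, 9 passed, all higher, and the median log2 fold change was 0.91. Fosl1, an AP-1 subunit, rose by 4.00 ± 0.26, with 1 of the 4 sham-operated mice not well above background. The interleukin genes Il6 and Il1b rose by 3.35 ± 0.36 and 3.22 ± 0.37, and the transcription factor gene Runx1 rose by 1.83 ± 0.21 (SE, n = 4 per group). Junb, also an AP-1 gene, rose by 1.16 ± 0.23, and dropped to 0.99 without sham replicate 2. The AP-1 genes Fos and Jun had log2 fold changes of 0.40 and -0.07 with limma adjusted p of 0.620 and 0.914. Stat3 had 0.54 (limma adjusted p = 0.160). These levels were read in the same whole-ventricle RNA as the 10 genes, and their part in the changes of Mmp9, Mmp14 and Timp1 was not tested.

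Markers of other cell types that the ventricles could hold were read in the same comparison. For neutrophils, 9 of 10 marker genes were measured (Ly6g had no probe named by a RefSeq transcript) and 5 were called higher. Of these, Ngp passed the filter on dim signals through the MI mice alone. Retnlg rose by 4.24 ± 0.27, Cxcr2 by 3.31 ± 0.22, S100a8 by 3.02 ± 0.22 and S100a9 by 2.79 ± 0.21 (SE, n = 4 per group), while Csf3r, Mpo and Camp did not pass. Ngp was well above background in the 4 MI mice and in no sham-operated mouse, and was at least 5.27-fold higher. The summed level of the 9 markers was between 203624 and 315391 units of normalized linear signal after MI, against 61498 to 80313 after sham operation. Such a sum follows its brightest probes, which were S100a9 after MI (mean log2 level 17.13) and Csf3r after sham operation (15.34). For monocytes and macrophages, 7 of 9 marker genes were measured (Cd68 and Ly6c2 had no probe named by a RefSeq transcript). Cd14 (2.25 ± 0.27) and Ccr2 (1.15 ± 0.23) were called higher, and Lyz2, Csf1r, Adgre1, Mrc1 and C1qa did not pass. The summed level of the 7 markers was between 18246 and 27195 after MI, against 15052 to 22401 after sham operation. Its brightest probe was that of Csf1r (13.14 after MI and 13.30 after sham operation), while Cd14 was at 12.51 and 10.26. No marker of fibroblasts (7 measured), endothelial cells (6), mesothelium and epicardium (3), T cells (2 of 4) or B cells (3) was called in limma. The T cell markers Cd3g and Cd8a were left out by the filter on dim signals. At an unadjusted limma p under 0.05, 1 fibroblast marker was lower, and 1 endothelial and 2 B cell markers were higher. Among the cardiomyocyte markers, Actn2 was higher by 0.51 at an unadjusted limma p of 0.0349 (adjusted p = 0.204). Of 4 smooth muscle markers Acta2 rose, by 1.46 ± 0.25, and of 7 cardiomyocyte markers Nppa was called, at 1.37 ± 0.36. Its groups overlapped, with an exact permutation p of 0.0857, and it was not called with the authors' values, with no filter, with the other normalizations or with the other tests. Nppa did not pass without MI replicate 2 (limma adjusted p = 0.0627), and without sham replicate 4 it dropped under 2-fold, as Ccr2 did. The part of the neutrophil and monocyte markers in the levels of Mmp9, Mmp14 and Timp1 was not tested.

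Genes whose values over the 8 mice were most like those of the called genes were found by the root mean square difference of centred log2 values among 15085 genes, as a description. For Mmp9 they included Asprv1 (0.22) and the leukotriene receptor gene Ltb4r1 (0.23). For Mmp14 they were Tirap (0.21), 1810055G02Rik (0.22) and the tetraspanin gene Tspan9 (0.22). For Timp1 they included Serpind1 (0.21) and Cd44 (0.21), the hyaluronan receptor gene that is also on the list of cell-surface control. The values share the same 8 arrays, and 2 groups that differ in level make such likeness common.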

How the data were processed

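Expression was measured in ventricles of 4 MI mice and 4 sham-operated mice, 1 one-colour array each, and groups were taken from the sample labels. The deposited intensities are Feature Extraction 11.0.1.1 processed signals, which per the file headers had the local background subtracted and spatial trends removed, without normalization between arrays (annotation build mm9). The authors' log2 values come from detected spots, normalized between arrays on spike-in probes with limma and vsn. Fitting these values to the processed signals gave a scale and an additive constant per array (largest misfit 5e-09 on the log2 scale), which were applied to all spots. Outlier spots and control probes were left out, spots of a probe were averaged, and 34038 of 55681 probes, those detected on 4 or more of 8 arrays, were kept. The number of arrays limits the precision.

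Groups were compared in limma 3.58.1 (R 4.3.3) without covariates, with Benjamini-Hochberg adjustment over all kept probes, and single values and 6 within-array ratios by the exact two-sided permutation test (70 relabellings). Each SE and confidence interval of a fold change is from limma, with a variance drawn partly from all kept probes, while each SD is that of the mice. Python 3.11.15, numpy 2.4.6, scipy 1.17.1, pandas 2.3.3 and matplotlib 3.10.9 served for the rest. In simulated data for 4 against 4 mice, with 200 of 33865 probes changed 4-fold, limma recovered 97.5% with 2 false calls, significance analysis of microarrays 96.5% with 1 and an unmoderated test 73.0% with 0. The simulated probes varied independently of each other. These figures therefore do not cover deviations that many probes of a mouse share, or changes near 2-fold. Symbols came from RefSeq transcripts of GRCm38, and the brightest kept probe stands for a gene. The alternatives were other scalings, background corrections, filters, tests and blocks, the authors' values, and leaving out each mouse. Named genes are the 10 members, the called genes of each list (at most 4 per direction) and the 3 genes most like each called member, and all further genes were named with their values known. A few genes that these rules name are not reported here. The members and lists were chosen with earlier results of these data known.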

Additional observations from a re-analysis of the deposited data

Results flagged for a closer look

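In groups of 4 mice, a value was singled out when its gap to the nearest other mouse took up an unusually large part of the range of the group. Of 20 groups (10 genes, MI and sham), 2 held such a value, where chance gives about 1 in 20 groups. Both were the highest value of the sham-operated mice and both came from sham replicate 1. Mmp9 was at 6.53 there, against 5.74 in the next mouse, a gap of 0.862 of the range. Mmp14 was at 7.74, against 6.88 in the next mouse, a gap of 0.835 of the range. Without this mouse the log2 fold change was 2.68 for Mmp9 and 1.63 for Mmp14, both larger than with it.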

How the results depend on the processing

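Of the counts, 1184 probes were called (1046 higher and 138 lower), and leaving out each mouse gave between 1046 and 1461. The count was 333 with the spike-in model refitted, 534 with normexp background correction and quantile normalization, and 576 with an unmoderated test. At an adjusted p under 0.05 and any fold, 2590 probes passed, against 5973 with 75th percentile scaling, 6153 with quantile normalization, 7034 with normexp, 4895 with the replicate block, 1271 with the refitted model, 990 with no filter and 747 with an unmoderated test. Scaling moved the split of higher and lower calls to 1043 and 401 (75th percentile) and 970 and 437 (quantile). The median of all probes moved from 0.12 to -0.02, -0.03 and -0.01 with 75th percentile scaling, quantile normalization and normexp. Of the 10 genes, 3 were called, 2 with the refitted model (Mmp9 and Timp1) and with normexp (Mmp9 and Timp1), and 1 with an unmoderated test (Mmp9), where 1 gene passed at any fold. The other alternatives, significance analysis of microarrays and the authors' values among them, called 3. Without each mouse in turn the same 3 genes stayed over 2-fold and passed, with log2 fold changes from 2.38 to 2.68 (Mmp9), 1.19 to 1.63 (Mmp14) and 1.08 to 1.48 (Timp1).

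Over all alternatives the number of genes called ranged from 1 to 3 among the other MMP genes (2 in the values reported), from 2 to 5 among ADAM and ADAMTS genes (4), from 0 to 3 among substrates (2), from 2 to 8 among inducers (7), from 1 to 2 among monocyte and macrophage markers (2), and from 0 to 1 among smooth muscle (1), cardiomyocyte (1) and B cell (0) markers. The 2 other MMP genes were Mmp8 and Mmp25, and Mmp25 passed the filter on dim signals through the MI mice alone. With detection required on all 8 arrays the count of other MMP genes was 1. The lowest counts of ADAM and ADAMTS genes, substrates and inducers came with the unmoderated test.

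Signs turned for genes that never passed: Mmp3 to -0.10 (75th percentile), -0.072 (quantile) and -0.10 (normexp), Timp3 to -0.000294 (75th percentile), Timp4 to -0.069 (75th percentile) and -0.014 (quantile), and Timp2 to 0.20 (other probe). Without single mice Mmp3 lay between -0.12 and 0.29, Mmp15 between -0.00434 and 0.40, Timp3 between -0.043 and 0.28 and Timp4 between -0.13 and 0.26. With normexp, 5 ratios passed at an adjusted p of 0.0343 by exact permutation, namely Timp1 over Timp2 (1.59), Timp1 over Timp3 (1.19), Timp1 over Timp4 (1.24), Mmp9 over Mmp2 (1.52) and Mmp19 over Mmp14 (-0.76). The cause was not tested. The labels do not say that replicate numbers pair the mice, and pairing was not settled by the data: correlations of same-numbered deviations were 0.238, 0.292, 0.143 and 0.0114, and 2 of 4 MI mice were closest to their own number. With the replicate block 1155 probes and the same number of members, 3, were called. The changes of Mmp9, Mmp14 and Mmp19 were smaller in both alternatives with larger additive constants (normexp and the refitted model). These alternatives differ in more than the constant, and the part of dim signals was not tested.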

Other observations

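In the RefSeq annotation of GRCm38, 3 of the 4 TIMP genes lie within a synapsin gene, whose products are best known from synaptic vesicles of neurons. These genes were looked up for their position and their values were not part of the comparisons above. Syn1, which contains Timp1, was at 6.88 ± 0.75 after MI and 5.70 ± 0.31 after sham operation (mean ± SD, n = 4 per group), a log2 fold change of 1.19 ± 0.28 (SE) with a limma adjusted p of 0.00613. Syn3, which contains Timp3, had a log2 fold change of 0.55 (limma adjusted p = 0.0935), and Syn2, which contains Timp4, one of -0.03 (limma adjusted p = 0.965). Of these 3 genes only Syn1 passed the test. Whether its probe reads the synapsin transcript alone was not tested.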
